A study of Mus musculus with 4 samples.

Results

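The killer cell lectin-like receptors (gene symbols beginning with Klr) are the largest group of receptors through which mouse natural killer (NK) cells read the surface of other cells. All genes were taken whose symbol starts with Klr followed by a letter from a to k and which had at least 10 UMIs (unique molecular identifiers, counted RNA molecules) over both libraries. All 26 symbols of that form met the minimum, out of 32285 genes in the feature lists. They were described in 2 CITE-seq libraries of mouse heart cells, in which transcripts and antibody tags are read from the same cells. The anti-CD40 library came from C57BL6J mice given an agonist antibody against CD40, and the isotype library from C57BL6J mice given rat IgG. Each library pooled the hearts of 4 mice, so there was 1 library a group and no test between groups was possible. All intervals are exact 95% intervals that cover counting error of UMIs or of cells only, not differences between mice. Titles and protocols give the sort as live CD45+ cells, whereas the series description names DRAQ5 staining, and age, sex, antibody dose and time are not given in the sources used here.

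NK cells are innate lymphocytes that kill without a rearranged antigen receptor. Inhibitory Klr receptors bind class I MHC or related molecules on healthy cells and restrain killing, while activating ones signal through adaptor proteins such as DAP12 (Tyrobp) and DAP10 (Hcst). The Klra genes encode the Ly49 receptors, which bind class I MHC and are switched on in overlapping subsets of NK cells. Klrc proteins pair with CD94 (Klrd1) and recognise Qa-1, Klrk1 encodes the activating stress receptor NKG2D, and the Klrb1 proteins bind C-type lectin-like ligands of the Clec2 family.

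All 26 members lie on chromosome 6 (build GRCm38.p6). Apart from Klrg1 and Klrg2, the other 24 fall in a single stretch at chr6:128609227-131247716, 2.64 Mb long, which is the NK gene complex. The Ly49 genes within it are close copies of each other. How reads that matched several copies were handled is not given in the sources used here, so the split of UMIs between Ly49 genes is uncertain. The same holds for Klrc1, Klrc2 and Klrc3. The labels name a 5′ kit while the tags are named for a reagent series used with 3′ kits, so the transcript end that was read is also not settled.

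The likeness of the Ly49 genes extends to their promoters. RefSeq windows (GRCm38.p6, 250 bases before to 50 after the gene start) were found for 23 of the 26 members and for 11 of the 11 Klra genes. Over the bases that aligned, the windows of Klra9 and Klra3 were 96.4% identical, those of Klra4 and Klra8 86.6%, and those of Klra8 and Klra2 77.6%. The 6 windows below are those of the 2 genes with the largest difference between libraries in macrophages, Klra2 and Klrk1, and of the 4 Ly49 genes with the largest in NK-gate cells. Capitals mark 2 motifs searched on both strands. These are the block AGGAGGGGC, chosen after the windows were compared, and the Runx core TGTGGT.
Klra2: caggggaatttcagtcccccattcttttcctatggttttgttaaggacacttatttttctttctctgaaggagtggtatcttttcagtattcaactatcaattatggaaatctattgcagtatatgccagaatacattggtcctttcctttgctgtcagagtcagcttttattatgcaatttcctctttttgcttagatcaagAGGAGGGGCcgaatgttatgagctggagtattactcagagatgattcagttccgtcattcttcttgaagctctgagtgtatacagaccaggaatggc
Klrk1: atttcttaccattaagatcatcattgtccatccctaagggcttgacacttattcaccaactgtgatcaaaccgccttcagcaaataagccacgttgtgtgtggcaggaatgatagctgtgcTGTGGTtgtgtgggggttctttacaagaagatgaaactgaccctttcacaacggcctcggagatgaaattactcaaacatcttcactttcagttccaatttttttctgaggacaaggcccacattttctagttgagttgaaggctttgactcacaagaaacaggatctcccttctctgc
Klra9: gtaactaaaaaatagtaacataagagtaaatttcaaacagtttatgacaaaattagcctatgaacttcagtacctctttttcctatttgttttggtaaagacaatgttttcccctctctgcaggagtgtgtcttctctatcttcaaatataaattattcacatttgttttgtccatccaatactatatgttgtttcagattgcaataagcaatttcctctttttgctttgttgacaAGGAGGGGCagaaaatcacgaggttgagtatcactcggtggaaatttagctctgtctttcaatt
Klra8: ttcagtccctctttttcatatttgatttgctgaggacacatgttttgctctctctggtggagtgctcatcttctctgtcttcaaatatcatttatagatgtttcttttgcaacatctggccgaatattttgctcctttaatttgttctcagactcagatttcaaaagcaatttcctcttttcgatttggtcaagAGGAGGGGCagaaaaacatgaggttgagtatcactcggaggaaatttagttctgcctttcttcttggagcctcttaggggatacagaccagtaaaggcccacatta
Klra4: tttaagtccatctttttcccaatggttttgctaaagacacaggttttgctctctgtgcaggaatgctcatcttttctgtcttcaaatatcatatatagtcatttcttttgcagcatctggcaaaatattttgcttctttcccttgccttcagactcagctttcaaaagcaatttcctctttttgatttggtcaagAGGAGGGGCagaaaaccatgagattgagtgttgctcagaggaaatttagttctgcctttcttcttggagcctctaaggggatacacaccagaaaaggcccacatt
Klra5: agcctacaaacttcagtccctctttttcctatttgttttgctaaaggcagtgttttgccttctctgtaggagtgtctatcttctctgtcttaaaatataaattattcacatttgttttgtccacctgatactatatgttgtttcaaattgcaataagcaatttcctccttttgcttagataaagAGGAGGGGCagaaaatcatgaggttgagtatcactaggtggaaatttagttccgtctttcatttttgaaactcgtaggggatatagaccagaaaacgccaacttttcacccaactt
All 6 windows are on the minus strand. Klra2 is at chr6:131247313-131247612, Klrk1 at chr6:129623815-129624114 and Klra9 at chr6:130193063-130193362. Klra8 is at chr6:130129849-130130148, Klra4 at chr6:130067222-130067521 and Klra5 at chr6:129913175-129913474. The block AGGAGGGGC was found in 8 of the 11 Klra windows and in no other member's window, against 1.78% of 32851 windows of all genes. The Runx core was found in 8 of the 23 members' windows, among the printed ones in that of Klrk1, against 16.8% of all windows. The T-box core TCACACC, the site of Eomes and T-bet, was found in Klra1 alone and in 3.98% of all windows. These are letter matches in short windows and say nothing of binding.

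Cells were assigned by marker UMIs. NK-gate cells had 3 or more UMIs of Ncr1, Klrb1c and Klre1 together, T-gate cells 2 or more of Cd3d, Cd3e and Cd3g, and C1q-high macrophages 20 or more of C1qa, C1qb and C1qc; cells that passed more than 1 of these gates were set apart. The NK gate held 135 anti-CD40 cells and 125 isotype cells, with median depths of 6292 and 4815 UMIs. The T gate held 152 anti-CD40 and 42 isotype cells, and the C1q-high gate 2319 and 950. Levels are in CPM, a gene's UMIs scaled to a total of 1000000 gene UMIs in the gate. UMIs count molecules whatever the transcript's length, so levels of different genes were set side by side as they stand. The 2 libraries shared 13 barcodes, 6 of them among kept cells.

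The NK gate held cells with NK markers outside the Klr genes. Gzma, a granule protease, stood at 13194 CPM in anti-CD40 and 9521 CPM in isotype NK-gate cells, and Prf1, the pore-forming perforin, at 1843 and 1257 CPM. Ncr1, the receptor NKp46, Klrb1c and Klre1 define the gate and cells with Cd3d, Cd3e and Cd3g UMIs were set apart from it, so the presence of the first 3 genes and the low levels of the others in it are no finding.

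Most members had their highest level, as a share of a gate's UMIs, in NK-gate cells. Of the 26 members, 23 had their highest level in the NK gate in both libraries, among the NK, T, C1q-high, neutrophil and B gates. For Klrb1c and Klre1, which are among the 23, the gate fixes this. Summed over the other 24 members, NK-gate cells held 35.7 UMIs per cell in anti-CD40 and 35.3 in isotype, against 2.32 and 3.10 per T-gate cell, 3.60 and 0.754 per C1q-high cell, and 0.959 and 0.512 per neutrophil-gate cell. The exceptions were Klra2 and Klra17, which encode the myeloid Ly49 receptors Ly49B and Ly49Q, and the scarce Klrg2. Klra17 was highest in neutrophil-gate cells, at 27.9 CPM in anti-CD40 and 39.7 CPM in isotype. Klrg2 had 12 UMIs in kept anti-CD40 cells, 11 of them in C1q-high cells, and 8 in kept isotype cells, 4 of them in C1q-high cells. Summed over all 26 members, C1q-high cells held 8418 UMIs in anti-CD40 and NK-gate cells 6105, against 751 and 5645 in isotype. C1q-high cells held 50.8% of Klrk1 and 55.5% of Klrb1b UMIs of kept anti-CD40 cells, the NK gate 17.0% and 16.2%. Klri1 is among the 23 with 1 isotype NK-gate UMI, and a dendritic marker gate, not ranked here, held 78.6% of its isotype UMIs.

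**Figure D1:**
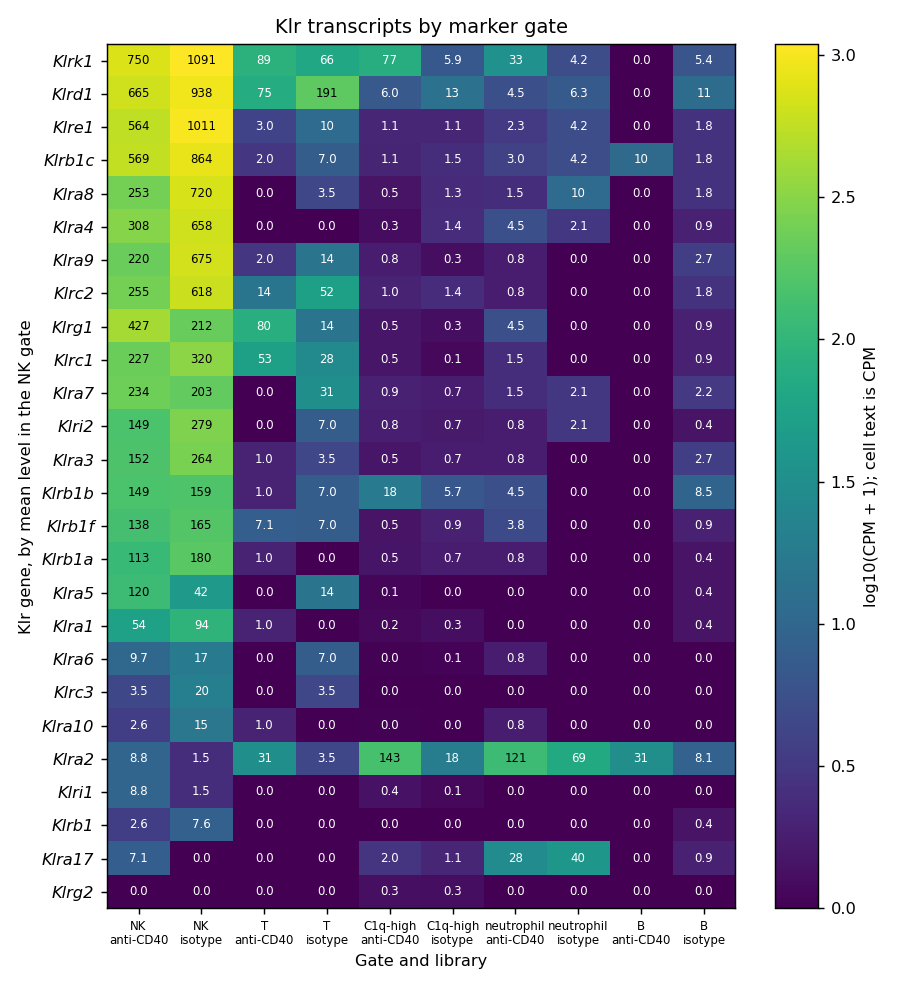
Level of each of the 26 Klr genes (rows, ordered by mean level in the NK gate) in 5 marker gates, anti-CD40 left of isotype for each gate. Colour is log10(CPM + 1) and the printed value is CPM; the NK columns stand apart for most rows, and Klra2 stands out in C1q-high and neutrophil columns.

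In NK-gate cells the members moved apart. Klrg1, a receptor of mature and activated lymphocytes, and Klra5 (Ly49E) were higher in anti-CD40 cells, while the Ly49 genes Klra9, Klra8 and Klra4 and the NKG2C gene Klrc2 were more than 2-fold lower. With at least 20 UMIs over both libraries required and a difference counted past 1.5-fold on the log2(CPM + 10) scale, 19 members could be compared. Of these, 2 were higher in anti-CD40, against 9.79% of all 7521 genes compared in the gate, and 10 were lower, against 17.8% of them. The other 7 lay within 1.5-fold. The 10 include Klrb1c and Klre1, whose UMIs helped to select the cells. With cells taken by Ncr1 alone (146 anti-CD40, 125 isotype), 2 members were higher, against 9.71% of genes, and 8 lower, against 16.4%, as Klrb1c and Klrb1a then lay within the limit. The median log2 ratio of the 19 members was -0.59 and that of all genes compared -0.13.

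These levels are shares of the gate's UMIs, and anti-CD40 NK-gate cells had more UMIs each, with medians of 6292 and 4815. Medians over all kept cells were 8284.5 in anti-CD40 and 5446 in isotype. RNA content and library depth cannot be told apart here, nor in UMIs per cell. The family's summed level was 5392 CPM in anti-CD40 and 8557 CPM in isotype, although UMIs per cell of the whole family were 45.2 in both libraries. Counted as UMIs per cell, an alternative added after the data were seen, 3 members were higher (Klra5, Klrg1 and Klra7) and 3 lower (Klra9, Klra8 and Klrc2, with log2 ratios of -0.93, -0.82 and -0.60). Scaling by TMM factors moved the ratios in the NK gate by 0.22 on the log2 scale and left 6 members lower. The calls of Klrg1, Klra5, Klra9, Klra8 and Klrc2 stood past 1.5-fold in the same direction under all 22 alternatives run. Among the 22, the minimums of 10 and of 50 UMIs and the 2-fold limit cannot change a single member's ratio. Among the cells set apart for passing the NK and T gates, Klra9, Klra8 and Klra5 lay within 1.5-fold, as given below.

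Klrg1, an inhibitory receptor for cadherins, was the most abundant member that was higher. It stood at 427 CPM (390.2 to 467) in anti-CD40 and 212 CPM (179 to 250.4) in isotype NK-gate cells, which is 2.01-fold higher (1.67 to 2.45). It was found in 98 of 135 anti-CD40 cells and 60 of 125 isotype cells. After every cell was thinned to 2000 UMIs, which left out 5 anti-CD40 and 9 isotype cells, the shares with a Klrg1 UMI were 47.7% (38.9 to 56.6) and 33.6% (25.1 to 43.0). As a measure of free RNA, thinned neutrophil-gate cells with a Klrg1 UMI were 1.19% in anti-CD40 and 0 of 111 in isotype. There 3 cells would be 2.70%, which is a floor and not an exact interval. Median depths of neutrophil-gate cells before thinning were 3397 and 3231 UMIs.

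Klra5 encodes Ly49E, which is known from fetal NK cells and tissue-resident innate lymphocytes. Its level was 120.1 CPM (101 to 142) in anti-CD40 and 42.4 CPM (28.2 to 61.3) in isotype, 2.83-fold higher (1.87 to 4.42). It came from few cells, 24 of 135 in anti-CD40 and 7 of 125 in isotype. Thinned shares were 15.4% (9.66 to 22.8) and 6.03% (2.46 to 12.0), intervals that overlap.

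Klra9 encodes the inhibitory receptor Ly49I. It stood at 219.9 CPM in anti-CD40 and 675 CPM in isotype, 3.07-fold lower (2.62 to 3.60). Thinned shares of cells with a UMI were 30.0% (22.3 to 38.7) and 56.9% (47.4 to 66.1), which do not overlap. Its promoter neighbour in sequence, Klra3 (Ly49C, an inhibitory receptor for H2-K), stood at 152 and 264 CPM, 1.74-fold lower (1.4 to 2.16). That call was lost under 6 of 22 alternatives, and its log2 ratio was 0.15 in NK-gate cells without Itga1 or Cxcr6 UMIs. Cells set apart for passing the NK and T gates held 22 Klra3 UMIs in anti-CD40 and 0 in isotype.

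Klra8 encodes Ly49H, an activating receptor that in C57BL/6 mice recognises a cytomegalovirus protein. It stood at 253 CPM in anti-CD40 and 720.0 CPM in isotype, 2.84-fold lower (2.45 to 3.30). Thinned shares were 24.6% (17.5 to 32.9) and 50% (40.6 to 59.4). Its log2 ratio was -1.47 over the whole gate and -0.78 among cells without Itga1 or Cxcr6 UMIs. Klra4, its close relative in the promoter comparison, encodes the activating receptor Ly49D, and stood at 308 and 658 CPM, 2.13-fold lower (1.85 to 2.46). Its thinned shares of 29.2% (21.6 to 37.8) and 41.4% (32.3 to 50.9) overlapped, and counted per cell its log2 ratio was -0.42. The lower level of Ly49 genes therefore included activating and inhibitory members.

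The remaining Ly49 genes of NK cells differed less. Klra7 (Ly49G, inhibitory) stood at 234 CPM in anti-CD40 and 203 CPM in isotype, a ratio of 1.15 (0.933 to 1.43). Klra1 (Ly49A, inhibitory) stood at 53.9 and 94.0 CPM, 1.74-fold lower (1.21 to 2.53). Klra1 UMIs came from 11 and 9 cells, and its log2 ratio was 0.60 after thinning and 0.042 with every cell weighing equally. Klra6 had 11 UMIs in each library.

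After thinning to equal depth, fewer Ly49 genes were found per anti-CD40 NK-gate cell. Of the 9 Klra genes other than the myeloid Klra2 and Klra17, cells thinned to 2000 UMIs held 1.52 on average in anti-CD40 and 2.16 in isotype. No Klra gene was found in 26.9% of anti-CD40 cells (19.5 to 35.4) and in 8.62% of isotype cells (4.21 to 15.3). At least 3 were found in 23.8% (16.8 to 32.1) and 38.8% (29.9 to 48.3). With thinning to 1000 UMIs the shares with none were 41.8% and 17.1%. Thinned counts also follow a gene's share of a cell's UMIs, and genes per cell were not counted without thinning. Without it, Klra8 was found in 42 of 135 anti-CD40 and 71 of 125 isotype cells, Klra4 in 49 and 58, and Klra7 in 51 and 44. A cell with no Ly49 UMI in so shallow a sample may still carry Ly49 RNA.

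**Figure D2:**
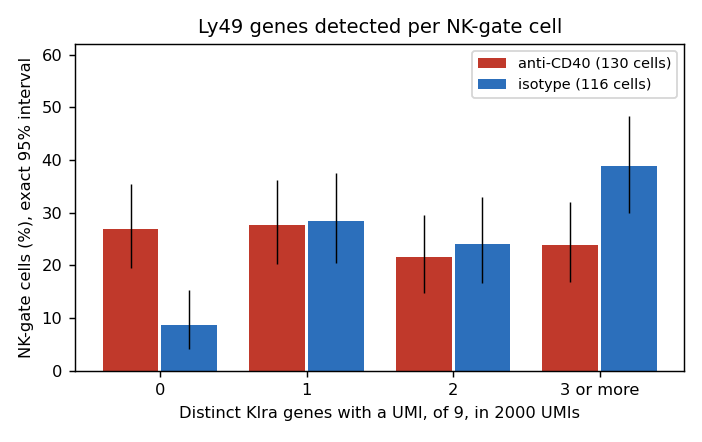
Share of NK-gate cells by the number of distinct Klra genes with a UMI, out of 9, after thinning each cell to 2000 UMIs, with exact 95% intervals. Anti-CD40 cells (130) have 26.9% with none against 8.62% of isotype cells (116), and fewer with 3 or more.

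Which receptors shared a cell was also described. Klra4 was found in 59.4% of anti-CD40 NK-gate cells with Klra8 (19 of 32) and 19.4% of those without (19 of 98); in isotype the shares were 51.7% (30 of 58) and 31.0% (18 of 58). Klra8 was found in 38.7% of anti-CD40 cells with Klrg1 (24 of 62) and 11.8% of those without (8 of 68); in isotype the shares were 56.4% (22 of 39) and 46.8% (36 of 77). For Klra8 and Klra9 the shares differed little, with 28.2% and 23.1% of anti-CD40 cells with and without Klra9 and 51.5% and 48.0% of isotype cells. Whether these patterns differ between libraries was not tested.

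The CD94 and NKG2 genes were split. Klrc2 encodes NKG2C, the activating partner of CD94, and stood at 255 CPM in anti-CD40 and 618 CPM in isotype, 2.42-fold lower (2.08 to 2.83). Thinned shares were 36.9% (28.6 to 45.8) and 71.6% (62.4 to 79.5). Klrc1 encodes the inhibitory partner NKG2A, and stood at 227 and 319.8 CPM, a ratio of 0.710 (0.589 to 0.856). Its thinned shares were 35.4% and 32.8%, so that fewer cells held Klrc2 in anti-CD40 while about as many held Klrc1. Klrd1, the CD94 chain they share, stood at 665 and 938 CPM, a ratio of 0.709 (0.636 to 0.790), within the 1.5-fold limit.

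Klrk1 (NKG2D) was the most abundant member of the family in the NK gate. It stood at 749.8 CPM in anti-CD40 and 1091 CPM in isotype, a ratio of 0.687 (0.621 to 0.760), and 6.29 and 5.76 UMIs per cell. It was found in 129 of 135 and 119 of 125 cells. UMIs per cell were thus close in the 2 libraries, while the share of UMIs was within the 1.5-fold limit with an interval below 1.

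Klri2 and Klre1 were lower as a share of RNA. Klre1 pairs with the products of Klri1 and Klri2 to form inhibitory and activating receptors. Klri2 stood at 149 CPM in anti-CD40 and 279 CPM in isotype, 1.87-fold lower (1.51 to 2.32). Klre1 stood at 564 and 1011 CPM, 1.79-fold lower (1.60 to 2.00), in the gate it helps to define; with cells taken by Ncr1 alone its log2 ratio was -0.75. Klri1 had 10 UMIs in anti-CD40 and 1 in isotype, too few to compare.

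Among the Klrb1 genes, differences were small. Klrb1c, the NK-1.1 antigen, stood at 569 CPM in anti-CD40 and 864 CPM in isotype and Klrb1a at 113 and 180.4 CPM. These 2 were 1.52-fold (1.35 to 1.70) and 1.60-fold (1.23 to 2.06) lower, and both were within the limit when counted per cell or scaled by TMM. Klrb1c helps to define the gate. With cells taken by Ncr1 alone the log2 ratios were -0.58 for Klrb1c and -0.57 for Klrb1a, also within the limit. Klrb1b, the inhibitory receptor for Clec2d, stood at 149 and 159 CPM, and Klrb1f, the receptor for Clec2i, at 138 and 165 CPM. Both lay within 1.5-fold. Klrb1, Klrc3, Klra10, Klra17, Klra2, Klri1 and Klrg2 had 0 to 13 UMIs in an NK gate and were not compared.

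**Figure D3:**
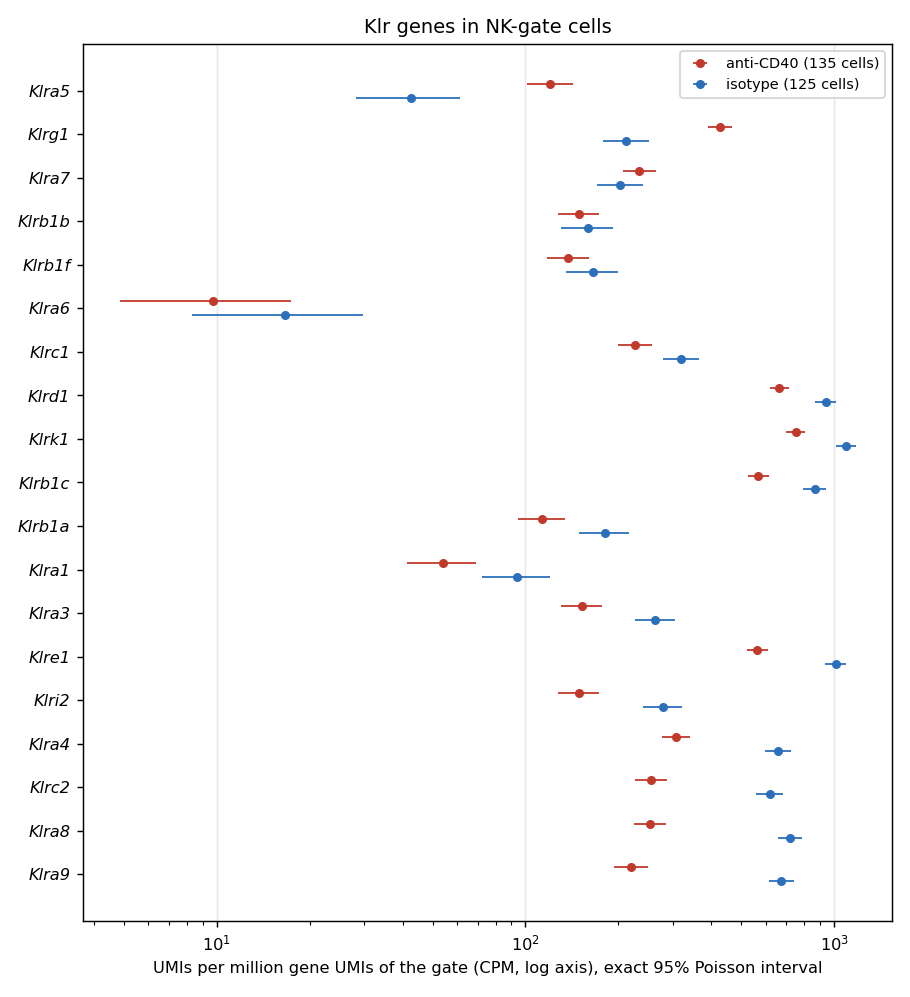
Levels of the 19 compared Klr genes in NK-gate cells (CPM, log axis) with exact 95% Poisson intervals, ordered by log2 ratio, anti-CD40 above isotype in each row. Klra5 and Klrg1 at the top are higher in anti-CD40, and Klra8 and Klra9 at the bottom are about 3-fold lower.

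Other genes of NK cells are given from lists for this system. Of all genes compared in the NK gate, 9.79% were higher and 17.8% lower, beside which the counts below stand. Of 8 NK regulators compared, 4 were lower and 0 higher in anti-CD40 NK-gate cells. Eomes, a T-box factor of conventional NK cells, stood at 100.7 and 289.5 CPM in anti-CD40 and isotype, and Zeb2, a factor of late maturation, at 367 and 846 CPM. Tcf7 (7.07 and 40.9 CPM) and Prdm1 (32.7 and 59.1 CPM) were the other lower ones. Tbx21 (164 and 203 CPM), Nfil3, Id2 and Ikzf2 were within 1.5-fold. Of 8 maturation genes, Itga1 (133 and 39.4 CPM) and Cxcr6 (118 and 22.7 CPM), both markers of tissue-resident innate lymphocytes, were higher, and S1pr5, Cd27, Itgam and Itga2 were lower. Of 6 effector genes, Gzmb was higher (1382 and 562 CPM) and the other 5 were within 1.5-fold. Of 12 adaptor and signalling genes, Syk was lower (98.0 and 161 CPM) and 11 were within; Tyrobp stood at 2762 and 3276 CPM and Hcst at 430.1 and 641 CPM.

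Markers of other cells differed between the 2 NK gates. The 5 B cell markers summed to 2.65 CPM in anti-CD40, with 2 of 5 detected, and 164 CPM in isotype, and the 7 macrophage markers to 485 and 315 CPM, with all 7 detected in both. Of the 6 macrophage markers compared 3 were higher and 2 lower, Mrc1 and Csf1r. Neutrophil markers summed to 488 and 402 CPM, with S100a9 higher (238 and 51.5 CPM) and Retnlg and G0s2 lower of 4 compared. Dendritic markers summed to 4.42 and 54.6 CPM. The 4 markers of type 1 innate lymphoid cells summed to 325 and 162 CPM, with Itga1 and Cxcr6 higher, Il7r lower (16.8 and 37.9 CPM) and Tmem176b within (56.5 and 62.1 CPM). Their part in the members' differences was not tested as a whole, and the counts that follow leave out cells with some of them. Among cells with no Itga1 or Cxcr6 UMI (57 anti-CD40, 109 isotype), 2 members were higher, against 8.12% of genes compared there, and 9 lower, against 22%. Among cells with under 3 C1q UMIs (57 and 114), 3 were higher, against 8.88%, and 8 lower, against 21.3%. Among cells without B cell UMIs (134 and 78), 2 were higher, against 12.3%, and 11 lower, against 18.3%. Cells with no UMI of the cycling genes Mki67, Top2a and Pclaf (88 and 112) gave 2 higher, against 7.46%, and 9 lower, against 20.7%.

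Antibody tags measured 9 of the receptors on the same cells. A cell was counted above background when its tag UMIs exceeded the 95th percentile of neutrophil-gate cells of its own library. The 9 control antibodies passed this limit in 0% to 4.44% of anti-CD40 and 0% to 3.20% of isotype NK-gate cells. The Ly49D and Ly-49A tags followed their genes cell by cell. The Ly49D tag was above the limit in 48 of 49 anti-CD40 and 58 of 58 isotype cells with a Klra4 UMI, and in 5 of 86 and 4 of 67 cells without one. The Ly-49A tag was above it in 11 of 11 and 9 of 9 cells with a Klra1 UMI, and in 3 of 124 and 1 of 116 without one. For these 2 Ly49 genes the UMI assignment and the tag thus named largely the same cells.

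The KLRG1 tag stood higher on anti-CD40 NK-gate cells, as did Klrg1 RNA. It had a median of 50 UMIs on anti-CD40 and 7 on isotype NK-gate cells, and was above the limit on 82.2% (74.7 to 88.3) and 68.0% (59.1 to 76.1) of them, intervals that overlap at their ends. Per 1000 tag UMIs of all antibodies it stood at 32.9 in anti-CD40 and 10.9 in isotype. Among cells with a Klrg1 UMI it was above the limit in 95 of 98 anti-CD40 and 56 of 60 isotype cells, with medians of 62 and 17 UMIs, so the difference in tag level also held among cells with Klrg1 RNA. The Ly49D tag was above it on 39.3% (31.0 to 48.0) and 49.6% (40.5 to 58.7), and the NK-1.1 tag on 63.7% (55.0 to 71.8) and 69.6% (60.7 to 77.5). The intervals of both tags overlap between libraries. Outside the family, the tag for CD49b, the product of Itga2, had medians of 14 UMIs on anti-CD40 and 113 on isotype NK-gate cells. It was above the limit on 73.3% (65.0 to 80.6) and 94.4% (88.8 to 97.7) of them. The NKp46 tag was above it on 85.2% and 86.4%.

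NKG2D differed between its 2 readouts. Its tag had a median of 5 UMIs on anti-CD40 and 1 on isotype NK-gate cells, and was above the limit on 37.0% (28.9 to 45.8) and 8% (3.90 to 14.2). Klrk1 UMIs per cell were close, as given above. With the limit set at the 99th percentile the difference in tag shares was 16.7 points in place of 29.0.

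CD94 was above the limit on 75.6% (67.4 to 82.5) and 64.0% (54.9 to 72.4), but the difference turned to -8.44 points at the 99th percentile. NKG2A stood at 39.3% and 30.4%, a difference of 8.86 points, which turned to -8.89 points at the 99th percentile. It was above the limit in 39 of 70 anti-CD40 and 33 of 58 isotype cells with a Klrc1 UMI, and in 14 of 65 and 5 of 67 without one. The Ly-49A tag stood at 10.4% and 8%. The Ly49H tag (1.48% and 1.60%) and the Ly49G tag (0.741% and 2.40%) were no higher than the control antibodies. Even among cells with a Klra8 UMI the Ly49H tag passed in 2 of 42 and 2 of 71. With tag counts taken per 1000 tag UMIs the share above the limit was 15.2 points lower in anti-CD40, and with the limit from B-gate cells 4.06 points lower.

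**Figure D4:**
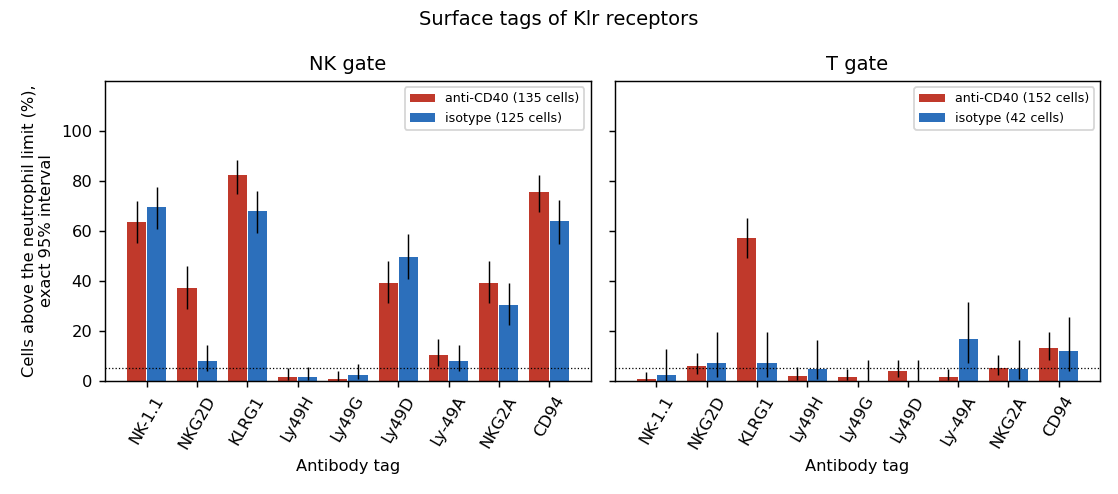
Share of NK-gate (left) and T-gate (right) cells with tag UMIs above the 95th percentile of neutrophil-gate cells, for 9 antibodies to Klr products, anti-CD40 left of isotype, with exact 95% intervals. The dotted line marks the 5% of neutrophil-gate cells that the limit allows; KLRG1 and NKG2D are higher on anti-CD40 NK-gate cells, and KLRG1 on anti-CD40 T-gate cells.

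In C1q-high macrophages 3 members were higher in anti-CD40, namely Klra2, Klrk1 and Klrb1b. Of 17 members compared in this gate, 3 were higher, against 4.84% of all 13328 genes compared, and 0 were lower, against 9.26%. With a prior of 1 CPM in place of 10, 3 were lower (Klrd1, Klra4 and Klra8). Among the other 14 members compared, Klrd1 stood at 6.02 CPM in anti-CD40 and 13.0 CPM in isotype. Its ratio without a prior was 0.462 (0.375 to 0.569). The rest stood at 0.272 to 1.97 CPM. At such levels a prior of 10 CPM holds any ratio within 1.5-fold, so the rest could not be called higher or lower.

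Klra2 encodes Ly49B, an inhibitory receptor of myeloid cells. It had 4713 UMIs in C1q-high cells of anti-CD40 and 243 in those of isotype, or 143 CPM (139 to 147) and 18.1 CPM (15.9 to 20.5). This was 7.88-fold higher (6.92 to 9). Thinned shares of cells with a UMI were 24.5% (22.8 to 26.4) and 3.96% (2.80 to 5.42). In neutrophil-gate cells Klra2 stood at 120.5 and 69.0 CPM, with thinned shares of 17.9% and 13.5%, so its difference between libraries was 1.75-fold there. In B-gate cells of the isotype library the share was 0.533%.

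Klrk1 had 2533 UMIs in C1q-high cells of anti-CD40 and 79 in those of isotype. Its level was 76.6 CPM (73.7 to 79.7) and 5.88 CPM (4.66 to 7.33), 13.0-fold higher (10.4 to 16.5). Thinned shares were 12.9% (11.5 to 14.3) and 0.535% (0.174 to 1.24). Neutrophil-gate cells gave 3.17% (1.38 to 6.16) and 0.901%. Klrk1 was higher in anti-CD40 in those cells too, at 33.1 and 4.18 CPM, 7.92-fold (2.07 to 67.5), on 44 and 2 UMIs. Cells with dendritic markers gave 130 and 73.1 CPM, 1.78-fold (1.26 to 2.51). Kept cells outside all gates gave 97.0 and 30.5 CPM, 3.18-fold (2.50 to 4.09). The NKG2D tag had a median of 4 UMIs on C1q-high cells of both libraries, and was above the neutrophil limit on 18.8% (17.2 to 20.4) and 26.5% (23.7 to 29.5). Per 1000 tag UMIs it ran the other way, at 0.997 in anti-CD40 and 0.754 in isotype. The 9 control antibodies passed their limits on 1.60% to 35.6% of anti-CD40 and 2.21% to 29.4% of isotype C1q-high cells, so these shares lay within the range of the controls. The Ly49G tag, whose gene Klra7 was under 1 CPM in these cells, passed its limit on 28.4% and 25.4% of them.

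Klrb1b stood at 17.6 CPM in anti-CD40 and 5.66 CPM in isotype C1q-high cells, 3.11-fold higher (2.44 to 4.00). Thinned shares were 2.92% (2.27 to 3.69) and 0.214% (0.0259 to 0.771). In thinned anti-CD40 C1q-high cells, Klra2 was found in 29.4% (24.3 to 34.9) of those with Klrk1 and 23.8% (22.0 to 25.8) of those without. These intervals overlap at their ends. In isotype there were 5 thinned cells with Klrk1, too few to describe.

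Among C1q-high cells with 0 UMIs of the NK and T gate genes (2084 and 868), the log2 ratios were 2.47 for Klrk1, 2.41 for Klra2 and 0.87 for Klrb1b. The 5 B cell markers in the gate summed to 42.6 CPM in anti-CD40 and 1295 CPM in isotype; among cells without Cd79a, Cd79b or Ms4a1 UMIs (1874 and 327) the log2 ratios were 2.83, 2.47 and 0.89.

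**Figure D5:**
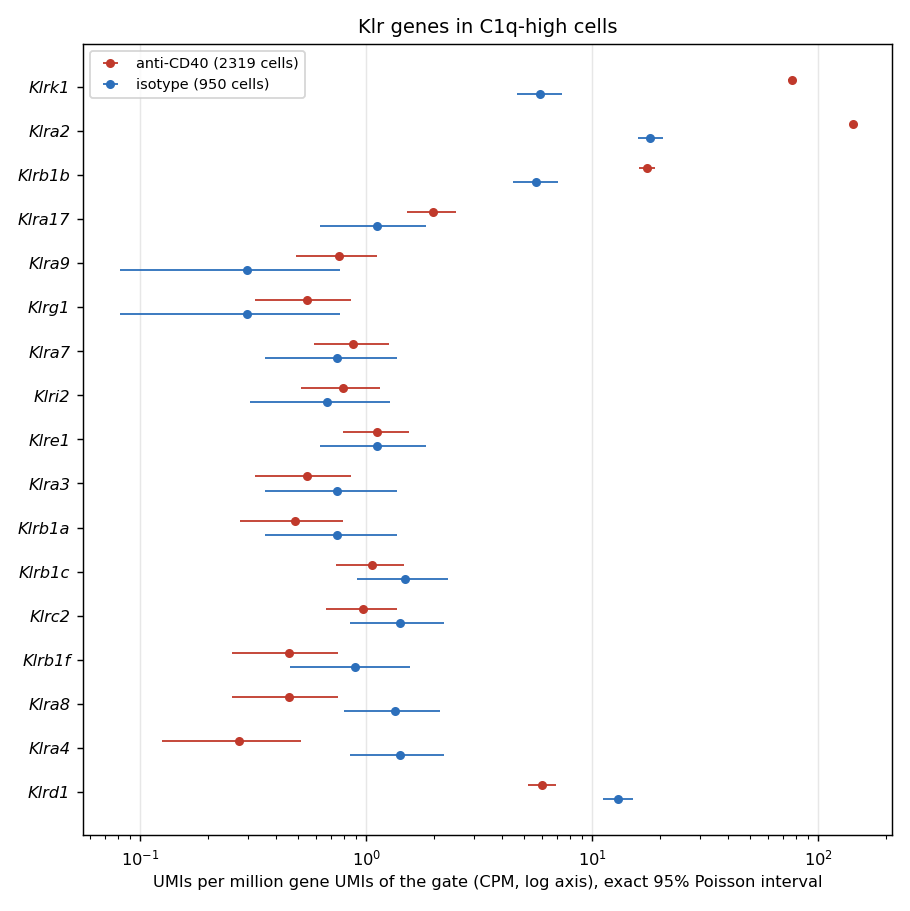
Levels of the 17 compared Klr genes in C1q-high cells (CPM, log axis) with exact 95% Poisson intervals, anti-CD40 above isotype in each row, ordered by log2 ratio. Klrk1, Klra2 and Klrb1b are higher in anti-CD40, while most other members lie near 1 CPM or below in both libraries.

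Genes for ligands of the family were also read in C1q-high cells. Of 9 compared, 3 were higher in anti-CD40, against 4.84% of all genes compared in the gate, and 1 was lower, against 9.26%. H2-T23, which encodes the Qa-1 ligand of CD94 receptors, stood at 872 CPM in anti-CD40 and 248 CPM in isotype. H2-K1 stood at 2856 and 999 CPM, and H2-D1, like H2-K1 a class I ligand gene of Ly49 receptors, at 3572 and 1928 CPM. Clec2i was lower, at 9.26 and 41.3 CPM, and Clec2d did not differ beyond counting error, at 174 CPM in each (ratio 1.00, 0.954 to 1.05). Of the NKG2D ligand genes, Ulbp1 stood at 14.7 and 8.49 CPM, and Raet1d, Raet1e, H60b and H60c were each under 1 CPM.

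T-gate cells held few Klr UMIs. Only 6 members reached 20 UMIs. Of these, Klrg1, Klrc1 and Klra2 were higher in anti-CD40, against 24.8% of all 6671 genes compared, Klrd1 and Klrc2 were lower, against 13% of them, and Klrk1 was within 1.5-fold.

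Klrg1 stood at 79.8 CPM in anti-CD40 (79 UMIs in 36 of 152 cells) and 13.9 CPM in isotype (4 UMIs in 1 of 42 cells), 5.74-fold higher (2.16 to 21.6). The KLRG1 tag was above the limit on 57.2% (49 to 65.2) and 7.14% (1.5 to 19.5) of T-gate cells. Klrc1 stood at 52.5 and 27.8 CPM, with a ratio interval that includes 1 (0.892 to 4.61). Klrd1 stood at 74.8 and 191 CPM, 2.56-fold lower (1.77 to 3.67), and Klrc2 at 14.1 and 52.1 CPM, 3.69-fold lower (1.66 to 8.24).

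The T gates differ in makeup. Cd8 T cells were 123 of 152 in anti-CD40 and 20 of 42 in isotype, and neutrophil markers summed to 845 CPM in anti-CD40 and 11822 CPM in isotype. Within Cd8 T cells Klrg1 had 57 UMIs in anti-CD40 and 0 in isotype. With 3 counts set in the isotype gate this was 3.49-fold higher, and the exact interval starts at 2.75-fold. Klra2 had 31 UMIs in the anti-CD40 T gate and 1 in isotype, beside macrophage markers at 720.4 and 573 CPM; the part of macrophage RNA in this was not tested.

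Cells that passed more than 1 gate held a good part of the family's RNA in anti-CD40. Cells passing the NK and C1q-high gates (65 anti-CD40 and 14 isotype) held 47.1 and 47.5 Klr UMIs each, close to NK-gate cells, with median depths of 27063 and 18845 UMIs. They carried 20.0% of Klrg1 UMIs of kept anti-CD40 cells and 1.21% of those of isotype cells. Cells passing the NK and T gates (37 and 12) held 96 Klrg1 UMIs in anti-CD40 and 0 in isotype. With 3 counts set in the isotype cells this was 7.18-fold higher, and the exact interval starts at 5.73-fold. In the same cells Klra9 (ratio 0.966, 0.626 to 1.54), Klra8 (0.769, 0.417 to 1.51) and Klra5 (1.46, 0.688 to 3.55) lay within 1.5-fold. Klrc2 (0.329, 0.224 to 0.488), Klra4 (0.212, 0.127 to 0.350), Klrk1 (0.510, 0.401 to 0.652) and Klri2 (0.355, 0.164 to 0.802) were lower there. Klrb1b (3.96, 1.28 to 19.8) and Klrc1 (1.57, 0.831 to 3.28) were higher. Klra3 was also higher, with 22 UMIs in anti-CD40 and 0 in isotype, and its exact interval starts at 1.23-fold. The NK gate held 44.5% of Klra9 UMIs of kept anti-CD40 cells and 82.6% of those of isotype cells. A gate of dendritic cell markers, added after the data were seen (28 and 76 cells), held 1.79% of Klrd1 UMIs in anti-CD40 and 21.6% in isotype, and 2.01% and 22.0% of Klrb1b UMIs.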

How the data were processed

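The deposited matrices hold raw UMI counts, whole numbers per gene or antibody tag and barcode with no normalization, for 32285 genes and 198 tags in 2 libraries. Cell Ranger 6.0.1 made them, per the file headers. Cell Ranger 3, Seurat 3, mm10 and GRCh38 are named in the submitters' processing notes, with no role given. Library totals were 53736318 gene UMIs over 7087 barcodes (anti-CD40) and 26847799 over 4908 (isotype). After barcodes with fewer than 200 genes or with 10% or more mitochondrial UMIs were dropped, 4278 and 2558 cells remained. No doublet caller was run; cells passing several gates were set apart. Neutrophil-gate cells had 50 or more S100a8 and S100a9 UMIs, B-gate cells 3 or more of Cd79a, Cd79b and Ms4a1. The C1q minimum of 20 is a choice made here.

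UMIs were summed per gate and library and scaled to CPM. CPM carry exact Poisson intervals, ratios conditional binomial ones and shares Clopper-Pearson ones (scipy 1.17.1), all at 95%. UMIs are molecules, but the intervals of CPM and of ratios do not cover sampling of cells. Those of shares take each cell as 1 draw from its pooled library. No interval covers sampling of mice. Log2 ratios used a prior of 10 CPM. Genes with 20 or more UMIs over both libraries in a gate were compared. TMM factors came from edgeR 4.0.16, used for scaling only. The calling step was tested on simulated data. Members with 50 or more UMIs in the NK gates are given in full, the others by range and count, and other genes only from set lists. Members and lists were chosen with earlier results of these data known. Gene positions and promoters are from RefSeq GRCm38.p6, matched by symbol.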

Additional observations from a re-analysis of the deposited data

How the results depend on the processing

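Each count of members past 1.5-fold was recomputed under the alternatives. Of 124 such values, among them those of 3 summary results of shares and tags, 110 stayed within their limit and 14 moved. Of 827 values of single genes or tags, 748 stayed within counting error, 73 moved further and 6 turned a difference that was past its limit. The 827 include log2 ratios under other UMI minimums and the 2-fold limit, which those settings cannot change. Of the 827, 41 had the other sign than the reported value, most of them values within the limit, over 20 results. The cause was not tested. In the NK gate the 10 lower members became 6 with median of ratios and with TMM scaling, 4 past 2-fold and 3 as UMIs per cell, and the 2 higher became 4 with thinning to 2000 UMIs, 4 with a minimum of 10 UMIs and 1 past 2-fold. In the T gate 5 members were higher with overlaps kept, and 1 was lower with under 3 C1q UMIs, with thinning and with a minimum of 50 UMIs. In the C1q-high gate 1 was lower with stricter cell filters, 1 with thinning, and 3 with a prior of 1 CPM. The 6 were the log2 ratios of Klrd1 in the T gate with overlaps kept (0.068), Klra1 in the NK gate after thinning (0.60) and with each cell weighing equally (0.042), Klra3 without Itga1 or Cxcr6 UMIs (0.15) and Klrb1c as UMIs per cell (0.064), and the CD94 tag at the 99th percentile (-8.44 points). UMIs per cell and the cell subsets without B, cycling, Itga1 or NK and T UMIs were added after the data were seen. No paired analysis was possible because each group is 1 library. Treatment and preparation cannot be told apart, and members with under 20 UMIs in a gate are below the depth at which they were compared.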
